A study of Mus musculus with 18 samples.

Results

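Among the 28442 genes of the deposited table, 7 long noncoding RNAs (lncRNAs) were followed here: Malat1, Neat1, A130040M12Rik, Snhg1, Gas5, Snhg12 and Mir22hg. They were taken by symbol and were selected on how tumors differed from livers in these same samples. Their tumor-liver values are therefore given as a description, and nothing is read from the limma calls printed for them below. All 7 passed the filter on low values, as did 11452 genes in total, and 261 of the 4132 lncRNAs that RefSeq names in the table. RefSeq lists 6 of the 7 as lncRNAs, and A130040M12Rik (gene ID 319269, named in the table as a RIKEN cDNA) was not placed by the annotation used.

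The samples were 6 livers and 12 advanced liver tumors of male Alb-R26Met mice, an F1 of C57 and 129Sv stock. Every mouse, liver donors included, carried a mouse-human chimeric Met transgene in the Rosa26 locus, which Cre under the Alb promoter switches on in the liver, and the livers came from mice without tumors. Livers were taken at 52 to 71 weeks and tumors at 49 to 72 weeks, 1 sample per mouse except tumors 11 and 12, which came from 1 mouse of 49 weeks. The sample names carry a tag, E19 in livers 4 and 5 and tumors 3, 4, 5, 7, 9, 10 and 11, and E20 in livers 1, 2, 3 and 6 and tumors 1, 2, 6, 8 and 12, and the sources used here do not say what the tag stands for. RNA with a poly-A tail was sequenced, and values are TPM, which count transcripts in proportion to a fixed total and are per length of transcript, divided by a trimmed-mean scaling factor of each sample (scaled TPM).

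Long noncoding RNAs are transcripts made and often spliced like messenger RNAs but not translated into a known protein. Malat1 and Neat1 stay in the nucleus, where Malat1 gathers in nuclear speckles with splicing factors and the long form of Neat1 is the scaffold on which paraspeckles form. Snhg1, Gas5 and Snhg12 host small nucleolar RNAs in their introns, which guide the modification of ribosomal RNA, while the spliced host is read by ribosomes and degraded through nonsense-mediated decay. Mir22hg is the host transcript of the microRNA miR-22, which is abundant in liver.

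The sequences below are those by which these RNAs are known. The mature strands of miR-22 lie inside Mir22hg on chromosome 11, at chr11:75463734-75463755 and chr11:75463772-75463793 on the plus strand (RefSeq, GRCm38.p6), with the seed, bases 2 to 8, in capitals. The 2 seeds differ.
mmu-miR-22-5p: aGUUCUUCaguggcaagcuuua
mmu-miR-22-3p: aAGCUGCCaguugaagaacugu

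Malat1 and Neat1 are neighbors on the minus strand of chromosome 19, and their 3′ ends share sequence although the rule did not use it. The 90 bases of the transcript that end in the 11 letters AAAAAGCAAAA are shown for Malat1 (chr19:5795982-5796071) and Neat1 (chr19:5824708-5824797, the last bases of its 20771-base transcript), from GENCODE vM21 on GRCm38. Capitals mark that run and each match to TTTTNCTTTT before it, searched on the transcript strand.
Malat1-201: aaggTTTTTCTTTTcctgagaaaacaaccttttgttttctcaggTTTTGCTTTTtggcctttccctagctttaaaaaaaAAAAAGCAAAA
Neat1-201: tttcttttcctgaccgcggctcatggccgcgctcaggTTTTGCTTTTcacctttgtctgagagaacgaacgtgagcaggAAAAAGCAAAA
Of 55450 annotated genes, 376 (0.678%) had a transcript with the 11-letter run and 3 (0.00541%) had it with TTTTNCTTTT within the same 90 bases, Malat1 and Neat1 among them. These uracil-rich and adenine-rich stretches are known to fold into a triple helix that protects the end of Malat1 and of the long form of Neat1, whose mature forms lack an added poly-A tail.

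The 3 small nucleolar RNA hosts were compared at their start sites with Malat1 and Mir22hg, the other members with an entry in the RefSeq promoter table. Each line runs from 40 bases before the annotated start to 20 bases from it, on the strand of the gene (GRCm38.p6). Capitals mark TATA found between 35 and 20 bases before the start, and the longest run of C and T touching the stretch from 5 bases before to 15 bases after it.
Snhg1, chr19:8723447-8723506: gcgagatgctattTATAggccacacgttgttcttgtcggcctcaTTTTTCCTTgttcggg
Gas5, chr1:161035126-161035185: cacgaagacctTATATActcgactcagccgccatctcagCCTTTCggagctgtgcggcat
Snhg12, chr4:132308638-132308697: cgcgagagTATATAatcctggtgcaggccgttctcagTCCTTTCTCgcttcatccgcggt
Malat1, chr19:5802653-5802712: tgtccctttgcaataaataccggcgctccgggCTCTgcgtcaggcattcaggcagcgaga
Mir22hg, chr11:75461499-75461558: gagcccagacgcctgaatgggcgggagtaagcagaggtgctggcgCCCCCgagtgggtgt
TATA stood in that window in Snhg1, Gas5 and Snhg12, against 4.75% of 32851 promoters, and neither in Malat1 nor in Mir22hg. The C and T run was 9 bases in Snhg1 and Snhg12, a length that 9.04% of promoters reach, 6 in Gas5 (28.7%), 5 in Mir22hg (44.1%) and 4 in Malat1 (63.4%). The annotated start lay within the run in Gas5 and Snhg12, while in Snhg1 the run began at base 5 of the transcript. RefSeq lists a further Gas5 start upstream, without TATA in the window and with a run of 3 bases.

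Before the members were read, Met, the gene carried by the transgene, was 15.97 to 38.4 scaled TPM in the livers and 73.0 to 152 in the tumors, with no overlap. The gene with the highest share of any sample total was the one labeled Siglece. It took 17.9% to 29.5% of the total in livers, 21.5% to 53.4% in 11 tumors and 82.9% in tumor 2. Siglece is a gene of myeloid cells, and the 4 leukocyte markers together reached at most 5.60 scaled TPM in livers and 11.5 in tumors. Whether the values under this label are transcripts of Siglece was not tested. Tumor 2 also had the lowest scaling factor, 0.19 against 0.76 to 1.41 elsewhere, and the fewest genes above 0, 8718. The other E20 tumors had 13270 to 13819 genes above 0 and the E19 tumors 11508 to 12394. The 6 hepatocyte markers (Alb, Apoa1, Ttr, Cps1, Tat and Hnf4a) were present in every group, with a summed level of 35300 to 44880 scaled TPM in livers and 33130 to 69670 in tumors. By limma with the mean of the tags, 1 of them was higher and 1 lower in tumors, as were 2 and 0 of 4 endothelial markers, 0 and 1 of 5 Kupffer cell and macrophage markers, and 2 and 3 of 5 stellate cell and fibroblast markers. Over all genes tested, 21.0% were called in this contrast. Of 4 leukocyte markers 2 passed the filter on low values, and of 4 cholangiocyte markers 1, and neither list had a call by limma (0 at an unadjusted p under 0.05). Between tags among tumors, 1 endothelial marker was higher with E20 and no other marker was called by limma, with 1 hepatocyte and 1 leukocyte marker at an unadjusted p under 0.05. Of all genes tested, 11.5% were called higher with E20. The part of the makeup of cells in the results on the members was not tested.

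Malat1 was the most abundant member in livers of either tag and in E20 tumors, and its level stood apart between tags in both tissues. In the livers it was 729 and 257 scaled TPM with E19, against 2686, 1462, 1515 and 2174 with E20. In the tumors it ran from 159 through a median of 251 to 715 with E19, and was 2068, 2777, 2392, 1766 and 2255 with E20. Every E20 tumor was above every E19 tumor and every E20 liver above every E19 liver, while tumors and livers of 1 tag overlapped. Among tumors this rested on the scaling of tumor 2, since as deposited Malat1 was 529 TPM in tumor 2 (E20) and 547 in tumor 11 (E19). At the median it was the 27th most abundant gene of E20 tumors and the 235th of E19 tumors.

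The tumor-liver log2 fold change of Malat1, on the log2(scaled TPM + 1) scale as throughout, was -0.55 ± 0.46 (SE) within E19 and 0.23 ± 0.38 within E20. The first value rested on 2 livers: it was 0.20 without liver 4 and -1.30 without liver 5. With no scaling between samples the second was -0.21. Malat1 thus had no tumor-liver direction that held across tags and settings.

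Neat1 was less abundant than Malat1 in every sample, and was lower in tumors than in livers within each tag. With E19 it was 125 and 59.6 scaled TPM in the livers and 10.4 to 29.2, median 18.3, in the tumors. With E20 it was 187, 284, 386 and 186 in the livers and 125, 152, 171, 174 and 167 in the tumors. The groups did not overlap in either tag, but the gap with E20 was narrow, 186 in the lowest liver against 174 in the highest tumor. As deposited the E20 groups overlapped, with 232 TPM in liver 6 and 243 in tumor 8, so that this separation held after scaling only.

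The log2 fold change of Neat1 was -2.15 ± 0.39 (SE) within E19, 4.43-fold lower, and -0.66 ± 0.32 within E20, 1.58-fold lower. Of all genes tested, 12.9% had every E19 tumor below every E19 liver and 4.62% every E20 tumor below every E20 liver. Taken without the tag the tumors and livers of Neat1 overlapped, since every E20 tumor, 125.3 at the lowest, was above both E19 livers, 124.7 at the highest.

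A130040M12Rik, whose function is not given by the annotation used, was the member with the largest tumor-liver difference. It was 10.9 and 6.39 scaled TPM in the E19 livers and 12.9, 15.1, 8.50 and 5.60 in the E20 livers. In the tumors it ran from 294 through 330 to 1069 with E19, and was 498, 320, 473, 515 and 723 with E20. The lowest tumor was thus far above the highest liver, a separation shown by 2.31% of all genes tested. Tumor 11 was highest of all.

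The log2 fold change of A130040M12Rik was 5.48 ± 0.43 (SE) within E19 and 5.49 ± 0.36 within E20, 44.7-fold and 45.1-fold. It ranked 6th of 11452 genes by its mean log2 fold change over the tags. At the median it was the 5003rd most abundant gene in E19 livers and the 159th in E19 tumors. Over 31 alternatives of processing and of samples left out, the mean value stayed between 5.20 and 5.67. In bulk RNA, more cells with the transcript and more of it in each cell cannot be told apart, here or for any member.

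**Figure D1:**
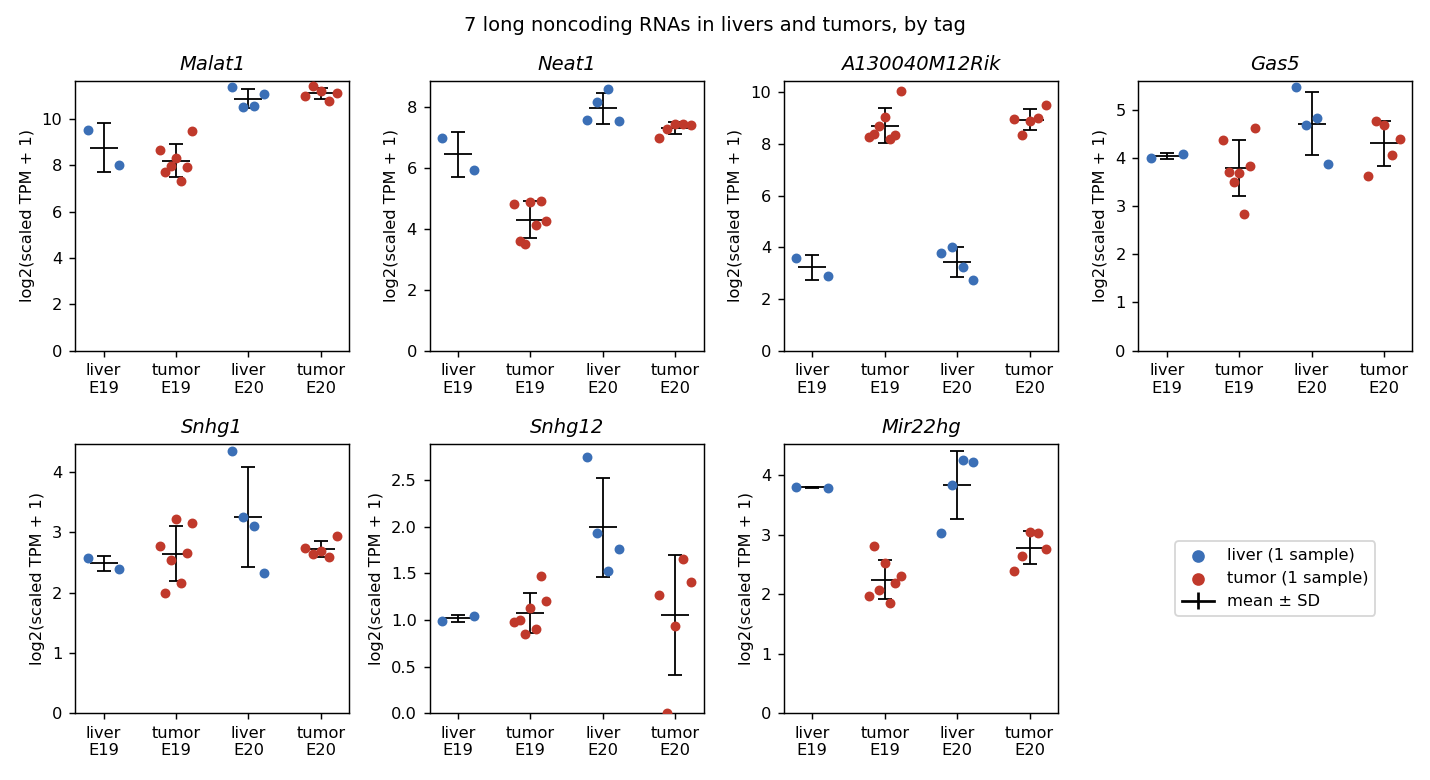
Levels of the 7 lncRNAs as log2(scaled TPM + 1) on the vertical axis, 1 point per sample, for livers (blue) and tumors (red) of each tag, with the mean and SD of each group in black. A130040M12Rik separates tumors from livers in both tags, Malat1 and Neat1 stand higher with E20 in both tissues, and the 1 tumor at 0 for Snhg12 is tumor 2.

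The 3 small nucleolar RNA hosts were low in all groups and overlapped between tumors and livers within each tag. Gas5, named for its rise in cells under growth arrest, was the most abundant of them. It was 14.8 and 15.97 scaled TPM in E19 livers, 43.0, 24.5, 27.4 and 13.6 in E20 livers, 6.10 to 23.5 (median 12.0) in E19 tumors and 11.3, 26.2, 24.6, 15.7 and 19.9 in E20 tumors. Its log2 fold change was -0.25 ± 0.41 (SE) within E19 and -0.40 ± 0.34 within E20, each close to its own error.

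Snhg1 was 4.95 and 4.26 scaled TPM in E19 livers, 19.4, 8.48, 7.56 and 3.997 in E20 livers, 2.997 to 8.28 (median 5.31) in E19 tumors and 5.66, 5.25, 5.46, 5.01 and 6.63 in E20 tumors. Liver 1 stood apart at the top. The log2 fold change was 0.16 ± 0.37 (SE) within E19 and -0.54 ± 0.31 within E20, and the latter was -0.14 without liver 1.

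Snhg12 lay near the limit of the whole-number values, 0.99 and 1.07 scaled TPM in E19 livers, 5.74, 2.83, 1.89 and 2.40 in E20 livers, 0.80 to 1.77 (median 0.999) in E19 tumors, and 1.42, 0, 0.91, 2.15 and 1.66 in E20 tumors. The value of 0 was that of tumor 2. Its log2 fold change was 0.06 ± 0.36 (SE) within E19 and -0.94 ± 0.30 within E20. The latter was -1.75 with a pseudocount of 0.1 and -0.43 with sample quality weights, and -0.66 without liver 1.

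Mir22hg was lower in tumors than in livers with either tag. It was 12.9 and 12.8 scaled TPM in E19 livers, 7.17, 13.2, 17.95 and 17.6 in E20 livers, 2.61 to 5.99 (median 3.54) in E19 tumors and 4.25, 5.25, 7.28, 7.15 and 5.80 in E20 tumors. The groups were apart with E19 and touched with E20, where tumor 6 lay just above liver 1. The log2 fold change was -1.55 ± 0.29 (SE) within E19, 2.92-fold lower, and -1.05 ± 0.25 within E20, 2.08-fold lower. The table gives the host transcript and miR-22 itself was not measured.

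By the limma moderated test over all genes, with a Benjamini-Hochberg adjusted p under 0.05, 3 members were called within E19 (A130040M12Rik higher, Neat1 and Mir22hg lower) beside 8.13% of all genes, and 2 within E20 (A130040M12Rik and Mir22hg) beside 8.28%. With the mean of the tags it was again 3, beside 21.0%. As the members were selected on these contrasts, nothing is read from these counts. Without liver 4 only 1 was called within E19, and without liver 3 or without liver 6 only 1 within E20. Whether the tumor-liver difference itself differed between tags was asked of all genes with limma. None passed the adjusted threshold (0% of genes, 334 at an unadjusted p under 0.05). For Neat1 it was 1.49 ± 0.50 (SE), with a limma p of 0.00828 unadjusted and 0.951 adjusted. This contrast uses the values on which the members were selected and rests on 2 E19 livers. Nothing is therefore read from it for Neat1, in either direction.

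**Figure D2:**
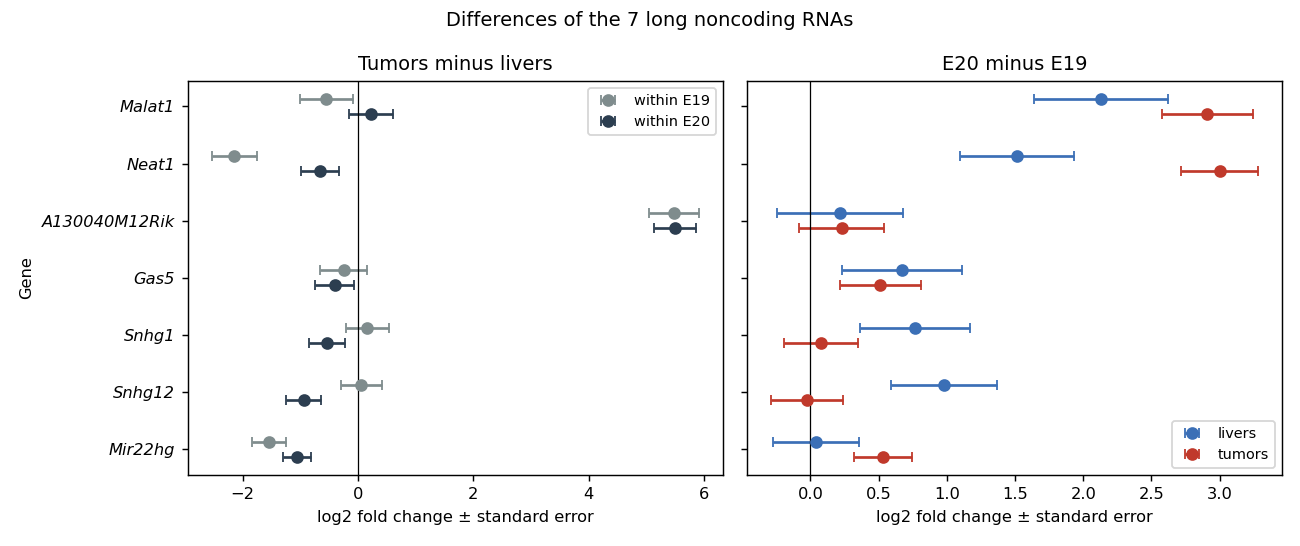
Log2 fold changes with their standard errors for the 7 lncRNAs. The left panel gives tumors minus livers within E19 (gray) and within E20 (dark), and the right panel E20 minus E19 within livers (blue) and within tumors (red). A130040M12Rik stands alone at 5.48 and 5.49 on the left, and Malat1 and Neat1 at 2.91 and 3.0 for tumors on the right.

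The rule compares tissues within a tag and not the tags among tumors, so that this difference was tested with limma, although on the same tumor values and with earlier results known. Malat1 was higher in E20 than in E19 tumors by 2.91 ± 0.33 (SE) on the log2 scale, 7.52-fold, with an adjusted p of 3.48e-05 in limma. Neat1 was higher by 3.0 ± 0.28, 8.002-fold, with an adjusted p of 8.76e-06 in limma. They ranked 5th and 3rd of all genes by this difference, and were the only members called, beside 11.5% of all genes called higher in E20. Every E20 tumor was above every E19 tumor for 5.97% of genes. As deposited Neat1 was 29 TPM in tumor 2 (E20) against 33 in tumor 10 (E19). Without scaling the log2 differences were 2.69 for Malat1 and 2.79 for Neat1 (limma adjusted p = 0.00292 and 0.00217), and without tumor 2 they were 2.85 and 3.04 (limma adjusted p = 1.96e-05 and 3.43e-06).

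The other members did not pass. Mir22hg was 0.53 ± 0.21 (SE) higher in E20 tumors (limma adjusted p = 0.0865), Gas5 0.51 ± 0.30 (limma adjusted p = 0.223), A130040M12Rik 0.23 ± 0.31 (limma adjusted p = 0.626), Snhg1 0.08 ± 0.27 (limma adjusted p = 0.866) and Snhg12 -0.02 ± 0.26 (limma adjusted p = 0.960). Among livers, 4 against 2, the log2 differences were 2.13 ± 0.49 for Malat1 and 1.51 ± 0.42 for Neat1, and neither passed (limma adjusted p = 0.136 and 0.176). No member was called there, 3 had an unadjusted p under 0.05, and limma called 7 genes in all. For Malat1, Neat1 and Snhg12, every E20 liver was above both E19 livers, as for 12.2% of all genes.

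Tumors 11 (E19) and 12 (E20) of 1 mouse carry different tags, and are set side by side as 1 library each, with no test. Malat1 was 715 scaled TPM in tumor 11 and 2255 in tumor 12, a ratio of 3.15, and Neat1 18.3 and 167, a ratio of 9.14. A130040M12Rik was lower in tumor 12, 723 against 1069. For the other 4 the ratio of tumor 12 to tumor 11 lay between 0.845 and 1.48. With both tumors left out, the counts of members called did not change by over 1.5 times.

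Classes of genes also differed between the tags, among them lncRNAs and long transcripts. Of the 255 other RefSeq lncRNAs tested, 79 were higher and 2 lower in E20 tumors (31.8%), with a median log2 fold change of 0.46. Of 10798 protein-coding genes, 16.8% were called, with a median of -0.12. By longest annotated transcript, the median log2 fold change of genes in tumors rose from -0.52 for 560 genes of up to 1000 bases to 0.43 for 621 genes of over 8000 bases, and in livers from -0.25 to 0.43. Malat1 has 6983 bases, in a bin whose median was 0.16, and Neat1 20771. The tumor-liver difference moved far less with length, from -0.14 to 0.03. RNA with a poly-A tail was sequenced, while mature Malat1 and the long form of Neat1 lack an added one. The part of this in the difference of Malat1 and Neat1 between tags was not tested. Nor was the part of transcript length, of the number of genes detected and of RNA quality. Anything that went with the tag cannot be told apart from the tag.

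**Figure D3:**
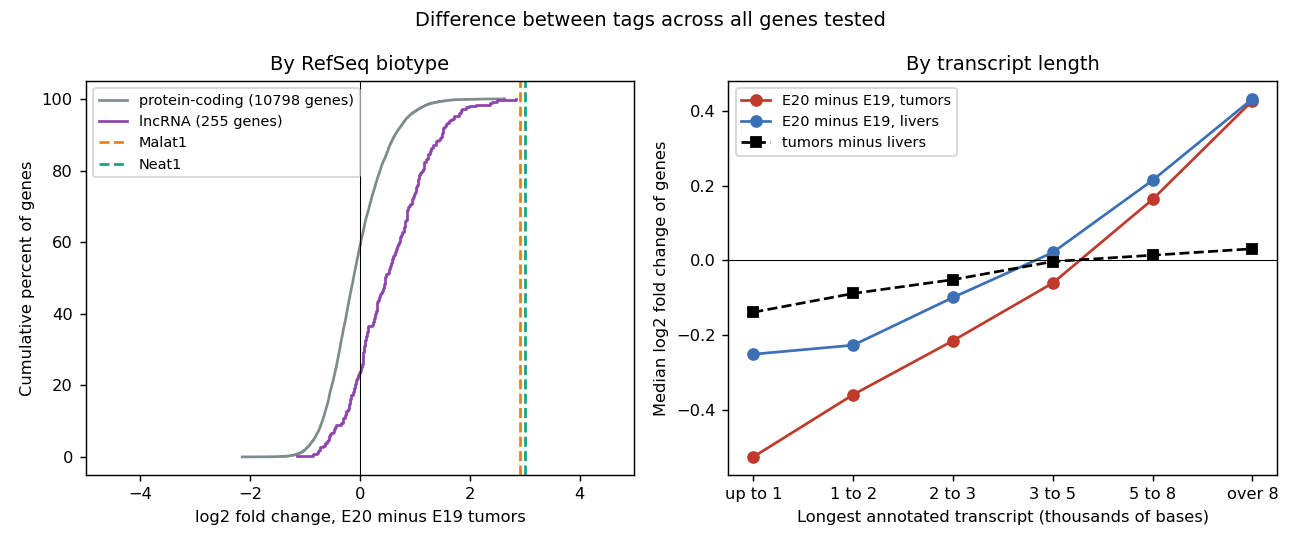
Left, cumulative percent of genes (vertical axis) by log2 fold change of E20 minus E19 tumors for 10798 protein-coding genes (gray) and 255 other lncRNAs (purple), with Malat1 and Neat1 as dashed lines at 2.91 and 3.0. Right, median log2 fold change of genes in 6 bins of transcript length for E20 minus E19 in tumors (red) and livers (blue), which rises with length in both, and for tumors minus livers (black), which stays between -0.14 and 0.03.

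Genes known to act with these RNAs were listed by role. Of 24 paraspeckle proteins, 1 fell in tumors with the mean of the tags, the cold-inducible RNA-binding protein Cirbp (log2 fold change -0.92, limma adjusted p = 0.00392), and none rose, with a list median of 0.05 against -0.03 over all genes. Of 22 nuclear speckle proteins, 2 fell, the splicing factor Srsf4 (-0.67, limma adjusted p = 0.00866) and the core spliceosome protein Prpf8 (-0.59, limma adjusted p = 0.0422), with a median of -0.12. Over all genes tested, 21.0% were called in this contrast.

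Between tags, 10 of the 24 paraspeckle proteins were higher in E20 tumors and none lower (median 0.41), among them Tardbp (0.56, limma adjusted p = 0.00687). So were 9 of the 22 nuclear speckle proteins (median 0.51), among them the kinases Clk1 (1.55, limma adjusted p = 0.00370) and Clk4 (1.53, limma adjusted p = 9.35e-06), which phosphorylate splicing factors, and Srrm2 (1.18, limma adjusted p = 0.00191). Over all genes the median of this contrast was -0.09, and 11.5% of genes were called higher in E20.

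Of 20 other small nucleolar RNA hosts, 15 were tested. With the mean of the tags 1 fell, Snhg11 (-1.45, limma adjusted p = 0.0499), and in E20 tumors 3 were higher than in E19 tumors, Snhg17 (1.68, limma adjusted p = 2.31e-04), Snhg20 (1.47, limma adjusted p = 0.00153) and Snhg15 (0.85, limma adjusted p = 0.0416). The list medians were -0.22 and 0.06. Over all genes tested, 21.0% were called with the mean of the tags and 11.5% were called higher in E20 tumors. Of the 15 proteins of small nucleolar ribonucleoproteins tested, none passed by limma in either contrast, with 2 and 4 at an unadjusted p under 0.05. Of 10 nonsense-mediated decay factors, none passed in limma for tumors against livers, with 1 at an unadjusted p under 0.05, and 4 were higher in E20 tumors, Upf2, Upf3b, Smg1 and Smg6, with Smg1, a kinase of this pathway, at 1.23 (limma adjusted p = 0.00410).

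Among 17 other known lncRNAs tested, of 41 listed, 5 rose and 1 fell in tumors with the mean of the tags. Over all genes tested, 21.0% were called in this contrast. H19, an imprinted RNA of fetal liver, was above 0 in 1 of 6 livers, at 0.717 scaled TPM, and ran from 1.42 through a median of 105 to 1866 in the tumors, so that it passed the filter on low values through the tumors and no fold is given. Pvt1, which neighbors Myc, was at most 1.43 scaled TPM in livers and ran from 0 to 5.25 in tumors. Terc, the RNA template of telomerase, ran from 0.72 to 2.13 in livers and from 0.88 to 5.25 in tumors. Both passed the filter mainly through the tumors, so no fold is given for them either. Tug1 and Oip5os1 rose by 0.69 and 0.62. Fendrr was the gene that fell, with 1 to 4 TPM as deposited in livers, 0 in every E19 tumor and at most 3 in E20 tumors. It passed the filter mainly through the livers. Pvt1 and Terc were likewise at most 2 TPM in livers and at most 5 and 6 in tumors as deposited, so that rounding to whole numbers limits their calls. In E20 against E19 tumors 8 of the 17 were higher and none lower (median 1.05). Beside them, 11.5% of all genes were called higher, and 79 of the 255 RefSeq lncRNAs other than the members. The 8 included Lncpint (2.50, limma adjusted p = 2.33e-04) and Firre (1.84, limma adjusted p = 1.39e-04). Kcnq1ot1 was also among them, but it was 0 or 1 TPM as deposited in every E19 tumor, so no fold is given. Among 16 microRNA hosts only Mir99ahg was tested, with no call between tumors and livers and a higher level in E20 tumors (1.07). Of 8 mitochondrial transcripts tested, ND5 and ND6 fell in tumors (-1.12 and -0.94), and ND6 was -2.08 within E19 and 0.20 within E20. It was higher in E20 tumors (1.37).

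By RefSeq (GRCm38.p6) Malat1 lies at chr19:5795690-5802672 and Neat1 at chr19:5824708-5845480, 22036 bases apart. Of their neighbors, Frmd8, 5494 bases from Neat1, was 0.78 higher in tumors on the log2 scale (limma adjusted p = 0.0796) and -0.49 between tags (limma adjusted p = 0.321). Slc25a45 was at -0.20 and 0.23 (limma adjusted p = 0.539 and 0.486). Neither Frmd8 nor Slc25a45 passed the test between tags that both lncRNAs passed.

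Snhg1 at chr19:8723487-8726326 starts 118 bases from Slc3a2, a subunit of amino acid transporters, which was at 0.44 in tumors (limma adjusted p = 0.0556). Snhg12 at chr4:132308678-132311024 lies 739 bases from Trnau1ap, at 0.01 (limma adjusted p = 0.968). Gas5 at chr1:161034601-161038539 overlaps Zbtb37 in RefSeq, and whether the quantification used strand is not given in the sources used here, so reads of the overlap cannot be told apart. Zbtb37 was at 0.00 in tumors against livers (limma adjusted p = 0.999), with 1.03 scaled TPM at the median of livers against 20.2 for Gas5. Mir22hg at chr11:75461539-75466690 lies 1334 bases from Tlcd2, at -0.25 (limma adjusted p = 0.429), and 6731 bases from Wdr81, at -0.20 (limma adjusted p = 0.612). Neither Tlcd2 nor Wdr81 passed the test. Of the next genes out, Prpf8, 20087 bases away, passed and was lower in tumors, as Mir22hg was (-0.59, limma adjusted p = 0.0422). Serpinf2, 22038 bases away on the other side, was at 0.63 and did not pass (limma adjusted p = 0.0828).

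Over the 12 tumors, after the mean of each tag was taken out, the members varied in different ways among themselves. Pearson's r of log2 values was 0.85 between Malat1 and Gas5, 0.75 between Malat1 and Snhg1, 0.29 between Malat1 and Neat1, and -0.04 between Snhg1 and Mir22hg. These are descriptions over 12 samples that share scaling and whole-number rounding. The genes most like each member, among 8362 (8363 for Snhg12), were Eif4g3, Oga and Cdc42bpa for Malat1 (r of 0.875, 0.871 and 0.868), Ogt, Cyp2d37-ps and Plec for Neat1 (0.883, 0.862 and 0.815) and Polr2h, Cxcl1 and Tsc22d2 for A130040M12Rik (0.891, 0.853 and 0.851). They were Pck2, Twsg1 and Cpn1 for Snhg1 (0.898, 0.877 and 0.830), Tpr, Rnf25 and Nub1 for Gas5 (0.898, 0.857 and 0.852), and Kif13b, Pptc7 and Lcat for Mir22hg (0.825, 0.797 and 0.765). For Snhg12 they were Selenoi, Usp46 and Fam210a at 0.970, 0.963 and 0.951, and 0.922, 0.906 and 0.868 without tumor 2, where Snhg12 was 0.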

How the data were processed

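Poly-A RNA of 18 samples was sequenced by the authors in paired reads, aligned to GRCm38 (mm10), and quantified as TPM by means of Salmon. The deposited score is this TPM rounded to whole numbers, with samples not pooled, although the study calls the table raw counts. Column totals were 835144 to 907513, from which the depth of each sample cannot be read, and no interval from counts is given. The study states a single number of reads per sample. In 8 lines an extra separator was handled, and 0 columns of samples were left unused. The edgeR named in the submitters' processing notes has no stated role.

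Values were divided by trimmed-mean-of-M factors (30% of M and 5% of A values trimmed at each end), kept at 1 or more in at least 6 samples, and fitted as log2(value + 1) with limma 3.58.1 in R 4.3.3, 1 mean per tissue and tag over all 18 samples, since a count test does not suit rounded TPM. Adjusted p-values are Benjamini-Hochberg over 11452 genes. The fit was also run on simulated data with independent samples, no difference between tags and no sample like tumor 2, so it does not bear on those features. The 2 tumors of 1 mouse entered as separate samples. Replicates are separate tissues, and the p-values measure the spread between them.

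The members and the lists (small nucleolar RNA hosts, microRNA hosts, other lncRNAs, paraspeckle, nuclear speckle, small nucleolar ribonucleoprotein and nonsense-mediated decay proteins, mitochondrial transcripts, cell type markers) were chosen with earlier results of these data known. Named genes were all members, Met, the top-share gene, up to 4 genes per list by size of the mean log2 fold change among those past the threshold with 1 sign in both tags, the nearest neighbors, and the 3 genes most like each member. Other list genes were named after their values were seen. Some genes that this rule names are not reported here. A length was found for 96% of tested genes. Same-numbered livers and tumors 1 to 6 came from different mice, and no block was used. The r between their deviations ran from -0.10 to 0.43, with a mean of 0.18 against -0.04 for other pairs. Alternatives were other scalings, pseudocounts of 0.5 and 0.1, no filter, quality weights, separate fits, age, no tag, the block, and each sample left out. Sequences came from RefSeq and GENCODE tables. Figures were drawn with matplotlib 3.10.9.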

Additional observations from a re-analysis of the deposited data

Results flagged for a closer look

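In 28 groups of member values tested for a sample far from the others by Dixon's ratio, where chance gives about 1 in 20 groups, or 1.4 in all, 2 samples stood out. A130040M12Rik was 1069 scaled TPM in tumor 11 against 523 in the next E19 tumor, a gap of 0.704 of the range (critical value 0.568), and tumor 11 gave 53.4% of its total to Siglece, a measure whose part was not tested. Snhg1 was 19.4 in liver 1 against 8.48 in the next liver, a gap of 0.708 of the range (critical value 0.625).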

How the results depend on the processing

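No log2 fold change of a member that was called changed sign in any alternative. Without scaling, 1 member was called within E19 and 1 within E20, where 3 and 2 were called, and 4 of the listed genes in place of 12. A separate fit of each tag called 1 member within E20. Leaving out each sample in turn gave 1 to 3 members within E19, 1 to 3 within E20 and 6 to 23 listed genes, with 6 without liver 4, 6 without liver 5 and 23 without tumor 2. Listed genes called were 30 with sample quality weights and, in settings chosen after seeing the data, 32 without tumor 2 and liver 1 and 6 in the 12 numbered samples without a block. The replicate block over livers and tumors 1 to 6, whose numbers did not pair them, called 3 members with the mean of the tags and 2 without the block, and 8 listed genes. In all alternatives the mean of the tags called 2 or 3 members and the tag contrast among tumors called 2 or 3. The tumor-liver difference between tags called 0 members by limma throughout (2 at an unadjusted p under 0.05 with all samples). Where a count moved with a setting, the cause was not tested. Without scaling the median of all genes within E20 moved from -0.08 to -0.30. Whole-number values limit Snhg12 and low listed genes such as Pvt1, Fendrr and Terc, and 2 livers limit E19.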
